A study of Mus musculus with 10 samples.

Results

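Agrin (Agrn), the neuregulins (Nrg1, Nrg2, Nrg3 and Nrg4) and the ErbB receptors (Erbb2, Erbb3 and Erbb4) were described in laser-captured mouse motor neurons. Members were chosen by gene symbol, which gave 8 genes of the 51912 in the count files. The symbols of 7 stand in the deposited tables, and Erbb2, with 4 counts over all libraries, was matched through GENCODE M21. The libraries came from 5 HSA-NRTN transgenic mice and 5 wild-type littermates, with 2 males and 3 females in each group, and each library was a pool of about 50 lumbar motor neurons from 1 animal. The HSA promoter, from the human skeletal actin gene, is active in muscle fibres, so the neurturin transgene (a ligand of the GDNF family) is driven outside the captured cells. Only large cells with a visible nucleolus were captured, which leaves out small motor neurons, and age is not given in the sources used here.

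Agrin is a proteoglycan that motor nerve terminals release into the synaptic cleft. It binds LRP4 on the muscle fibre, which activates the kinase MuSK and clusters acetylcholine receptors under the nerve. Neuregulins are EGF-like ligands of ErbB receptors. NRG1 carried on motor axons signals to ErbB2 and ErbB3 on Schwann cells, where it controls survival and myelination. Within the brain, ErbB4 is a receptor found mainly on neurons.

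Gene counts per library ran from 1875971 in HSA-NRTN replicate 2 to 6641695 in HSA-NRTN replicate 4. The 8 listed motor neuron markers, among them the acetylcholine synthesis and uptake genes Chat and Slc5a7, had counts in all 10 libraries. Their summed level was 6678 to 9078 CPM (counts relative to library size, with TMM factors) in HSA-NRTN pools and 6784 to 8816 CPM in wild-type pools. All 8 oligodendrocyte markers were also present in all libraries, at summed levels of 293 to 1531 CPM in HSA-NRTN pools and 219 to 695 CPM in wild-type pools. HSA-NRTN replicate 2 was highest in the summed oligodendrocyte (1531 CPM) and astrocyte (748 CPM) markers, and it had the fewest gene counts. The 5 Schwann cell markers summed to 0 to 17.3 CPM in HSA-NRTN pools and 0 to 8.03 CPM in wild-type pools. In such pools, fewer cells of a type and less RNA per cell cannot be told apart.

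The counts of Agrn do not separate its splice forms. Neurons splice short exons, known as the y and z exons, into the 3' part of the Agrn coding sequence, and forms that hold a z exon are the ones active on muscle. These exons are shown because they are the part of the gene that sets its activity at the synapse and that a count per gene leaves unresolved. In GENCODE M21 on GRCm38, 1 of 4 coding transcripts holds all of them, on the minus strand of chromosome 4. Exon 30 of its 38 exons, the y exon, has 12 bases (chr4:156169546-156169557), exon 34 has 24 bases (chr4:156168546-156168569) and exon 35 has 33 bases (chr4:156167777-156167809). Together they make up 69 bases, 0.743% of the exonic length of Agrn. Below, capitals mark the alternative exons, written 5' to 3' with 12 bases of the neighbouring exons on either side in lower case, and the second line holds exons 34 and 35 joined as in that transcript.
Agrn y exon: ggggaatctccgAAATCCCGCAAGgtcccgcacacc
Agrn z exons: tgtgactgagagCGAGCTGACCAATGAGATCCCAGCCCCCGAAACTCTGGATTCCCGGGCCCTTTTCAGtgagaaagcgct

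The ligand genes carried nearly all of the signal. Over all libraries the 5 ligand genes had 17600 counts and the 3 receptor genes 184. Per kb of exon, ligands held 97.4% to 100% of the summed level of the 8 genes in every HSA-NRTN library and 98.0% to 99.9% in every wild-type library. In the order of mean level per length, Nrg1 came first at 21.5 ± 4.29 CPM per kb (SD, n = 10 libraries), followed by Agrn at 12.1 ± 2.60 and Nrg3 at 7.61 ± 1.42 CPM per kb. Nrg1 lay above 81.4% of the tested genes with a known length, Agrn above 70.6% and Nrg3 above 59.7%. The next in order were Nrg4 at 1.12 ± 1.76, Nrg2 at 0.848 ± 1.39, Erbb4 at 0.275 ± 0.334, Erbb3 at 0.0871 ± 0.139 and Erbb2 at 0.0149 ± 0.0366 CPM per kb.

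**Figure D1:**
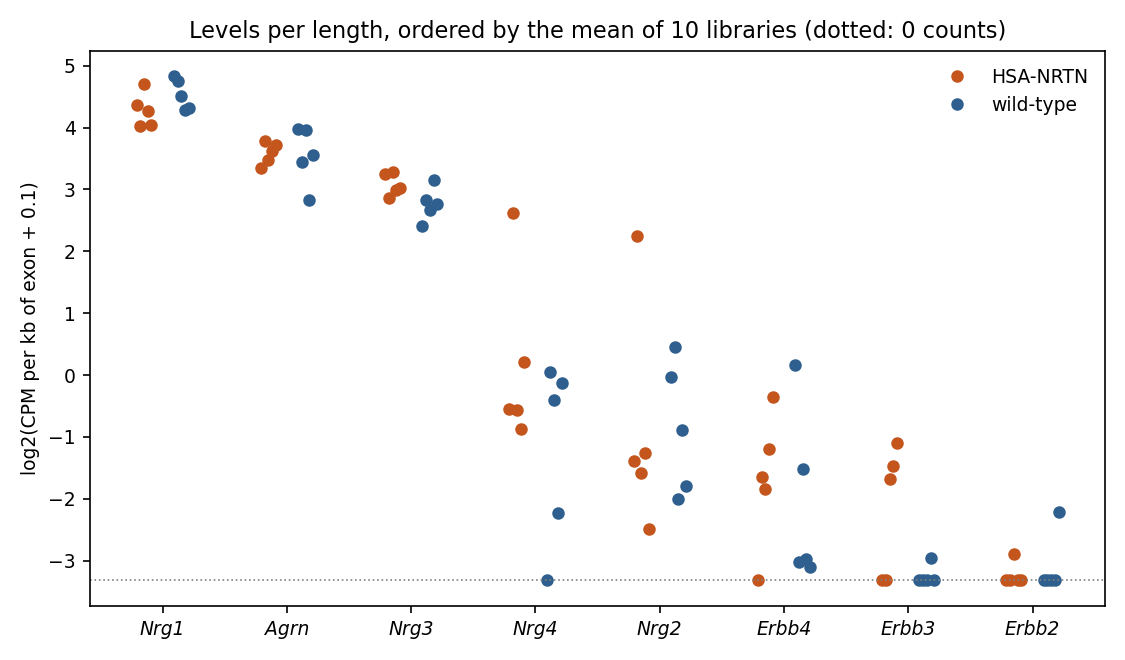
Level per length of the 8 genes, as log2(CPM per kb of exon + 0.1), with 1 point per library and HSA-NRTN libraries left of wild-type libraries. Nrg1, Agrn and Nrg3 form the upper part in all 10 libraries. The 3 receptor genes reach the dotted line of 0 counts in some libraries, and so does Nrg4 in wild-type replicate 1.

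Neighbours in this order were compared within libraries by an exact two-sided sign-flip permutation test on log2(CPM per kb + 0.1), adjusted over the 7 neighbouring pairs. Nrg1 was higher than Agrn in 10 of 10 libraries, by a mean of 0.84 on that scale (SD 0.42, adjusted p = 0.00684 by the permutation test). Agrn was higher than Nrg3 in 9 of 10 libraries, by 0.65 (SD 0.56, permutation adjusted p = 0.0228). With the length of the longest transcript in place of all exonic bases, that difference was 0.001 (permutation adjusted p = 1), so the order of Agrn and Nrg3 rests on the length used. Nrg3 lay above Nrg4 in 10 of 10 libraries by 3.44 (SD 1.53, permutation adjusted p = 0.00684). The size of the other 2 differences also moved with the length of the longest transcript. Nrg1 was then above Agrn by 1.66 in 10 of 10 libraries, and Nrg3 above Nrg4 by 2.96 in 9 of 10 (permutation adjusted p = 0.0137 each). The unadjusted p of Nrg1 over Agrn and of Nrg3 over Nrg4, 0.00195, is the smallest that 10 libraries can give.

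The lower genes were less clearly ordered. Erbb4 exceeded Erbb3 by 0.83 (SD 1.16, permutation adjusted p = 0.0273) in 7 of 10 libraries. That call ended (permutation adjusted p = 0.0547) when any 1 of 7 libraries was left out, namely HSA-NRTN replicates 2, 4 and 5 and wild-type replicates 1, 2, 3 and 5, and with 1 in place of 0.1 added before the log (permutation adjusted p = 0.0547). The neighbours Nrg4 and Nrg2, Nrg2 and Erbb4, and Erbb3 and Erbb2 did not differ beyond their spread (permutation adjusted p = 0.523, 0.194 and 0.219).

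Nrg1, Nrg3 and Erbb4 also share an unusual gene size. They span 1069, 1104 and 1076 kb of GRCm38, each longer than at least 99.9% of 51633 annotated genes, while Agrn spans 32.2 kb. Nrg1 (ENSMUSG00000062991) lies on chromosome 8 from 31814551 to 32884029, Nrg3 (ENSMUSG00000041014) on chromosome 14 from 38368952 to 39473088 and Erbb4 (ENSMUSG00000062209) on chromosome 1 from 68032186 to 69108059. Agrn (ENSMUSG00000041936) lies on chromosome 4 from 156165290 to 156197488. The annotation gives Nrg1 12 coding transcripts, and the counts do not separate its axon-bound and secreted types.

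Setting HSA-NRTN against wild-type pools addresses the theme in the title of the series, muscle-derived neurturin and the slow identity of motor neurons. Low-count genes were removed before the fit, which kept Agrn, Nrg1, Nrg3, Nrg4 and Erbb4 and removed Nrg2, Erbb2 and Erbb3. None of the 5 fitted genes was called at an adjusted p under 0.05 by edgeR's quasi-likelihood test, and none had an unadjusted p under 0.05, and DESeq2 (which called 0.8% of 15741 genes) and limma voom (0.0258% of 11630 genes) also called 0 of 5. Over all 11630 genes tested, 1 was called by edgeR (0.0086%), and 4.83% had an unadjusted p under 0.05. Values of the groups overlapped for all 5 genes, where 1.25% of tested genes did not overlap.

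**Figure D2:**
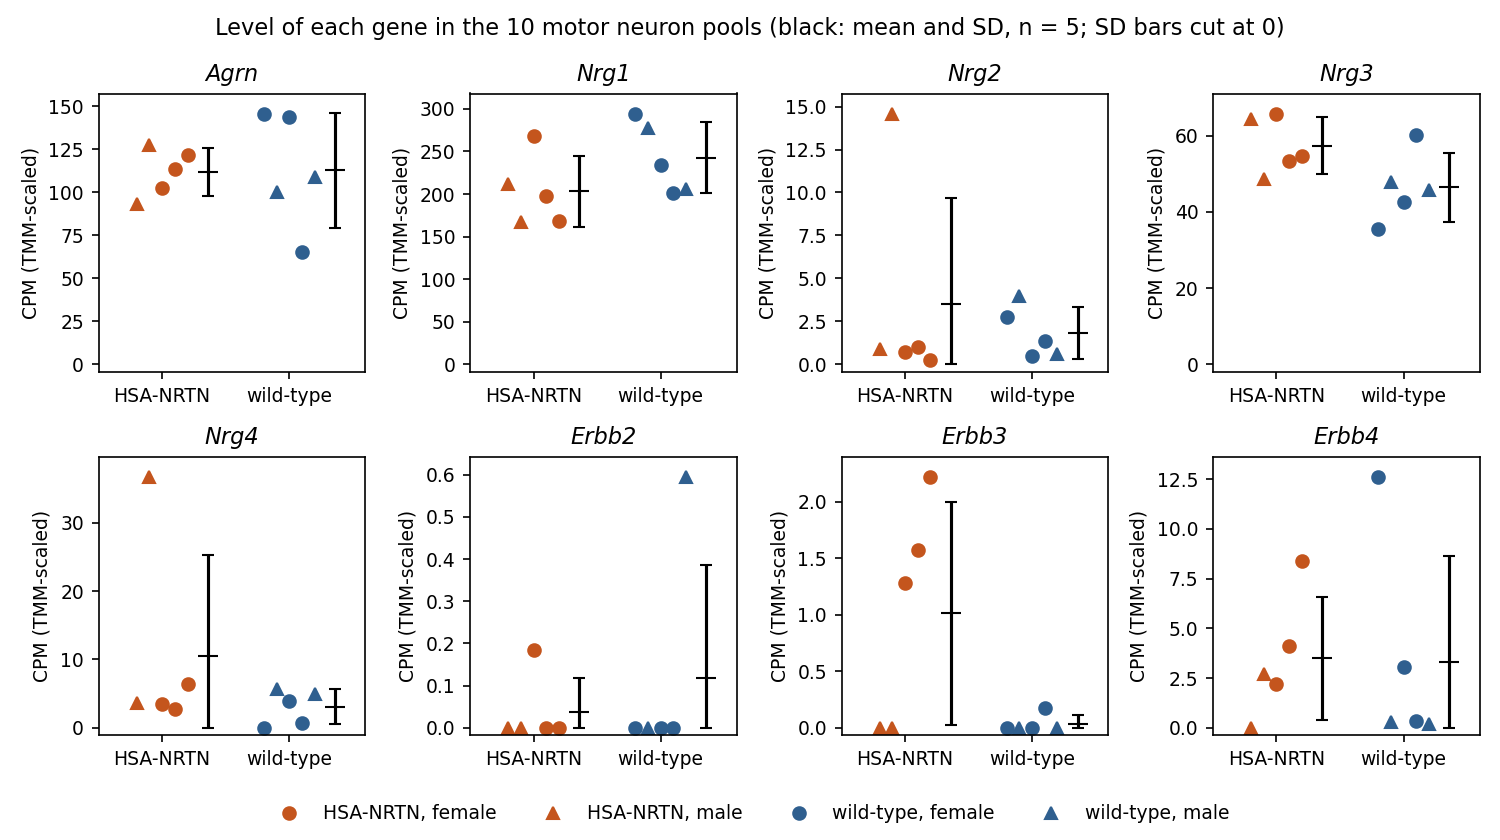
CPM of each gene by library, in HSA-NRTN pools on the left and wild-type pools on the right of each panel, with circles for females, triangles for males, and the mean and SD (n = 5) in black. Agrn, Nrg1 and Nrg3 overlap between the groups and vary less, relative to their means, than the other genes. Nrg2 and Nrg4 each have 1 far HSA-NRTN value, Erbb4 has 1 far wild-type value at 12.6 CPM, and Erbb2 and Erbb3 lie near 0.

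Agrn was at 93.4, 127, 103, 113 and 122 CPM in HSA-NRTN replicates 1 to 5, against 146, 99.96, 144, 65.2 and 109 CPM in wild-type replicates 1 to 5. The HSA-NRTN values lay inside the range of the wild-type values. The log2 fold change was -0.013 (SE 0.25), the smallest in size among the 5 fitted genes, and its edgeR adjusted p was 0.999. Wild-type libraries varied more, with a coefficient of variation of 29.7% against 12.4% in HSA-NRTN libraries, a difference that was not tested.

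Nrg1 stood at 212, 168, 268.5, 198 and 169 CPM in HSA-NRTN replicates 1 to 5, against 295, 277, 234, 202 and 206 CPM in wild-type replicates 1 to 5. In 3 of 5 HSA-NRTN libraries the level was below all wild-type libraries, while HSA-NRTN replicate 3 was above 3 of them. Nrg1 averaged 203.1 ± 41.3 CPM over HSA-NRTN pools and 242.5 ± 41.8 CPM over wild-type pools (SD, n = 5 each), a log2 fold change of -0.26 (SE 0.22) with an edgeR adjusted p of 0.999. Reads of Nrg1 and of Gm26578, a lincRNA with overlapping exons on the other strand and 164 counts, were not separated by strand.

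Nrg3, a neuregulin restricted largely to the nervous system that binds ErbB4, was at 64.4, 48.6, 65.8, 53.3 and 54.7 CPM in HSA-NRTN replicates 1 to 5, against 35.6, 47.9, 42.5, 60.2 and 45.8 CPM in wild-type replicates 1 to 5. Only wild-type replicate 4 of the wild-type libraries reached the HSA-NRTN values. The log2 fold change was 0.31 (SE 0.26), with an edgeR adjusted p of 0.999.

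Nrg1 and Nrg3 thus had fold changes of opposite sign, neither of which passed. The CPM ratio of Nrg3 to Nrg1 was 0.245 to 0.324 in HSA-NRTN libraries and 0.121 to 0.299 in wild-type libraries, given without a test because it was chosen after both values were seen. Among the 4 neuregulins, Nrg1 made up 63.7% ± 9.41 of the summed level per kb in HSA-NRTN pools and 74.5% ± 5.49 in wild-type pools (SD, n = 5 each). Nrg3 made up 27.6% ± 4.18 in HSA-NRTN pools and 22.1% ± 5.80 in wild-type pools. The lowest Nrg1 share, 47.6%, was in HSA-NRTN replicate 2, the library with the high Nrg2 and Nrg4 values given next.

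**Figure D3:**
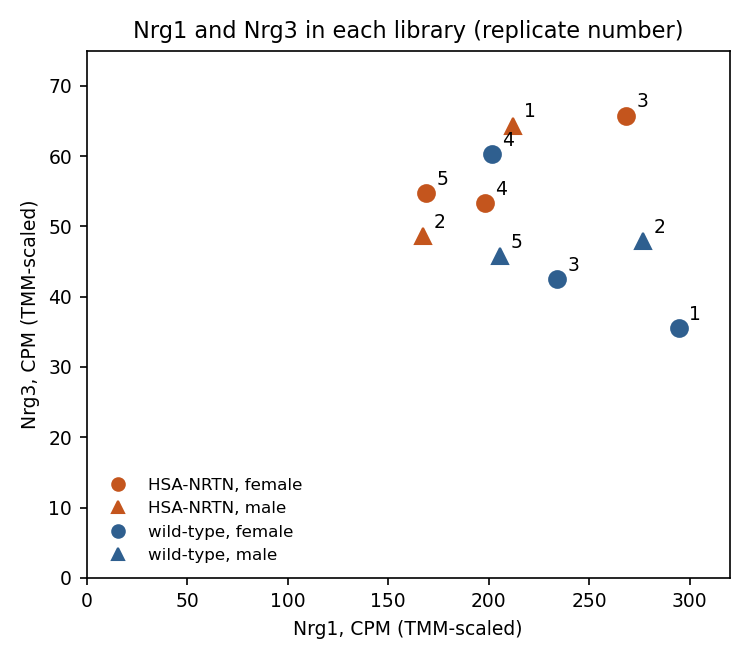
CPM of Nrg1 against CPM of Nrg3 in each library, labelled by replicate number, for HSA-NRTN (orange) and wild-type (blue) pools and for females (circles) and males (triangles). Wild-type replicate 1 has the highest Nrg1 level, 295 CPM, and the lowest Nrg3 level, 35.6 CPM, and wild-type replicate 4 lies among the HSA-NRTN libraries.

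Nrg4, a neuregulin that binds ErbB4 and is best known as a factor released by brown fat, was at 3.56, 36.8, 3.48, 2.71 and 6.41 CPM in HSA-NRTN replicates 1 to 5, against 0, 5.66, 3.99, 0.688 and 4.96 CPM in wild-type replicates 1 to 5. HSA-NRTN replicate 2 stood apart with 68 of the 144 HSA-NRTN counts, and the other 4 HSA-NRTN libraries lay between the wild-type extremes or just above them. The log2 fold change of 1.76 (SE 1.03, edgeR adjusted p = 0.999) was 0.40 without that library and 0.079 without it and wild-type replicate 1. Exons of Nrg4 overlap those of Fbxo22, a gene on the other strand with 757 counts.

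Nrg2, a neuregulin that binds ErbB3 and ErbB4, was too low to be fitted. It was at 0.890, 14.6, 0.733, 0.998 and 0.247 CPM in HSA-NRTN replicates 1 to 5, against 2.75, 3.97, 0.469, 1.38 and 0.595 CPM in wild-type replicates 1 to 5. HSA-NRTN replicate 2 held 27 of the 42 HSA-NRTN counts. The same library had the highest summed levels of oligodendrocyte, oligodendrocyte precursor, astrocyte and Schwann cell markers among the HSA-NRTN pools (1531, 70.3, 748 and 17.3 CPM), and the part of these cells in the Nrg2 and Nrg4 values was not tested.

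Receptor transcripts were scarce. A count of 3, the limit that a count of 0 allows, corresponds to 0.428 to 1.62 CPM in 1 library and 0.067 CPM over all 10, and limits and intervals on counts cover counting error alone, as amplified reads lacking molecular identifiers are not separate molecules. Erbb2, the co-receptor that binds no ligand itself, had 1 count in HSA-NRTN replicate 3 and 0 in the other HSA-NRTN libraries, against 3 counts in wild-type replicate 5 and 0 in the other wild-type libraries. Its exons overlap those of Mien1, a gene on the other strand with 6092 counts, so the origin of even these reads is uncertain. Erbb2 was therefore not detectable above this limit in 9 of 10 libraries, and in the other it was at the limit.

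Erbb3, the neuregulin receptor with little kinase activity that pairs with ErbB2, had 0, 0, 7, 11 and 9 counts in HSA-NRTN replicates 1 to 5, against 0, 0, 0, 1 and 0 counts in wild-type replicates 1 to 5. The 3 HSA-NRTN libraries with counts are the 3 females, and both HSA-NRTN males had none. Wild-type females, replicates 1, 3 and 4, had 0, 0 and 1 counts. The HSA-NRTN males, replicates 1 and 2, also had the fewest gene counts of their group (3257700 and 1875971). A count of 3 is 0.89 and 1.62 CPM in them, against Erbb3 levels of 1.28, 1.57 and 2.22 CPM in the HSA-NRTN females. Sex and depth thus cannot be told apart here. The ratio of pooled counts was 28.6, with an exact 95% counting interval of 4.71 to 1169. This interval leaves out the spread between animals. It also lay wholly below or above 1 for Nrg1 (0.849 to 0.919), Nrg3 (1.13 to 1.33) and Nrg4 (1.71 to 3.14), none of which was called. With no filter on low counts, where 12.8% of 26070 genes had an unadjusted p under 0.05, Erbb3 had an unadjusted p of 0.0384 and an adjusted p of 0.366 in edgeR, which did not pass. Erbb3 is a gene of oligodendrocyte lineage and Schwann cells. The summed oligodendrocyte markers of the 3 libraries with Erbb3 were 388, 400.3 and 528 CPM, against 293 and 1531 CPM in the 2 HSA-NRTN libraries without it and 219 to 695 CPM in wild-type pools. In the same order, oligodendrocyte precursor sums were 10.6, 9.12 and 37.0, against 17.8 and 70.3, and 9.62 to 69.5 CPM. Schwann cell sums were 0.55, 0.43 and 3.21, against 0 and 17.3, and 0 to 8.03 CPM. The part of these cells in the Erbb3 counts was not tested.

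Erbb4, a receptor kinase that neurons use for neuregulins and in which variants cause a familial form of human motor neuron disease, was at 0, 2.70, 2.20, 4.13 and 8.38 CPM in HSA-NRTN replicates 1 to 5, against 12.6, 0.283, 3.05, 0.344 and 0.198 CPM in wild-type replicates 1 to 5. In wild-type pools 55 of 72 counts lay in replicate 1, and 3 of 5 wild-type libraries had 1 or 2 counts. The log2 fold change was 0.089 (SE 1.17, edgeR adjusted p = 0.999), and it was 1.83 without wild-type replicate 1 (edgeR adjusted p = 0.999) and -0.53 without HSA-NRTN replicate 5 (edgeR adjusted p = 1). Wild-type replicate 1 also had the highest oligodendrocyte precursor (69.5 CPM) and astrocyte (295 CPM) marker sums of the wild-type pools. Of these sums, Olig1 alone gave 61.5 CPM and Slc1a2 alone 215 CPM. Interneuron markers summed to 249, 245, 44.0, 120 and 195 CPM in HSA-NRTN replicates 1 to 5. In wild-type replicates 1 to 5 they summed to 193, 35.4, 121, 5.16 and 374 CPM. The part of any of these cells in the Erbb4 values was not tested.

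**Figure D4:**
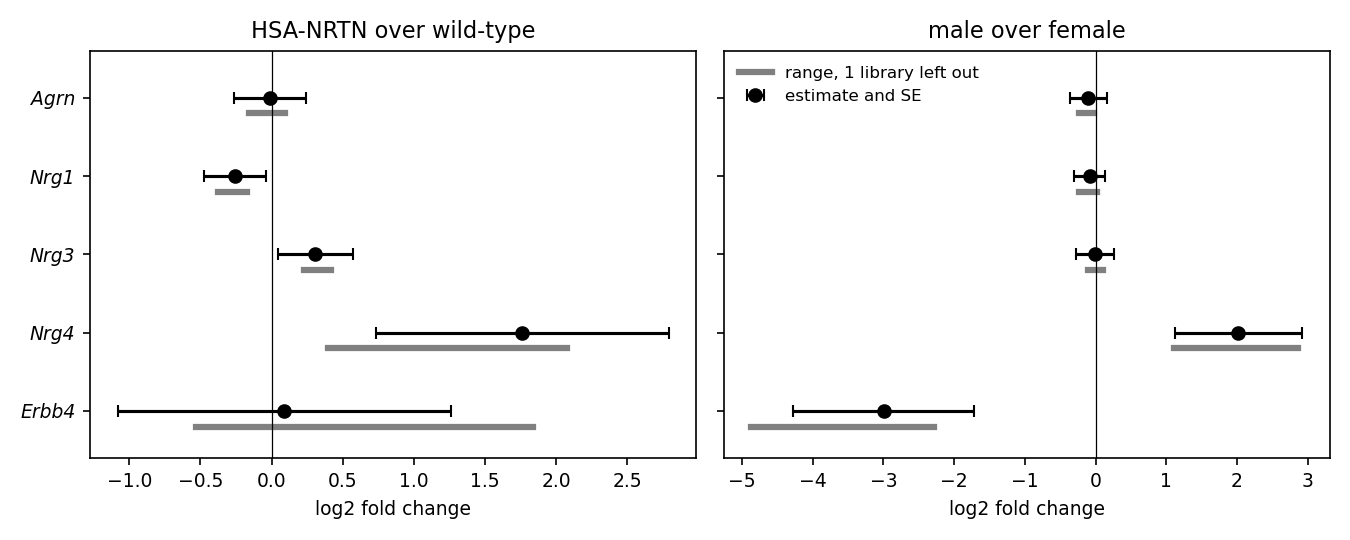
Log2 fold change of the 5 fitted genes for genotype on the left and sex on the right, with black points and bars for the estimate and SE and grey bars for the range when 1 library is left out. Agrn, Nrg1 and Nrg3 lie within 0.31 of 0 for genotype and within 0.11 for sex, and Nrg4 and Erbb4 have wide bars in both.

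Sex was tested with genotype in the model. Erbb4 was at 0.796 ± 1.28 CPM in the 4 males and 5.12 ± 4.55 CPM in the 6 females (SD), a log2 fold change of -3.00 (SE 1.28). With 1 library left out, that fold change was largest without HSA-NRTN replicate 2, at -4.87 (edgeR adjusted p = 0.706). It was smallest without wild-type replicate 1, at -2.29 (edgeR unadjusted p = 0.0698, adjusted p = 0.324). Nrg4 was at 12.7 ± 16.04 CPM in males and 2.88 ± 2.33 CPM in females, a log2 fold change of 2.02 (SE 0.90) that was 1.11 without HSA-NRTN replicate 2. Neither passed in edgeR's quasi-likelihood test (unadjusted p = 0.0342 and 0.0413, adjusted p = 0.420 and 0.433), and values of the sexes overlapped for both. These were 2 of 5 genes with an unadjusted p under 0.05, where 11.2% of all tested genes had one and 0.0086% were called. DESeq2, which called 1.5% of 13659 genes for sex, and limma voom, which called 0%, each called 0 of the 5. Agrn, Nrg1 and Nrg3 had log2 fold changes of -0.10, -0.084 and -0.0059 for sex, the last of which changed sign under limma voom (0.015). For the genotype by sex interaction, edgeR called none of the 5, all of which had an unadjusted p above 0.05, and 0% of all genes, with 5.14% of all genes at an unadjusted p under 0.05.

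Other genes of both pathways did not pass either. Of 53 genes listed for agrin reception and cleavage, EGF family ligands, neuregulin processing and ErbB adaptors, 34 were measured, and edgeR called none higher or lower. The log2 fold change was above 0 for 17 of them and below 0 for 17, where 48.6% of all 11630 tested genes were above 0 and the median was -0.015. An unadjusted p under 0.05 was found for 1 of the 34, where 4.83% of all tested genes had one. The lists were chosen with results of these data known.

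In the list of agrin receptors and postsynaptic partners, 4 of 14 genes were measured, with a median log2 fold change of -0.23 and 1 positive member. The list also held an agrin protease gene, Prss12, so its median does not describe receptors and postsynaptic partners alone. The member with an unadjusted p under 0.05 was Prss12, which encodes neurotrypsin, the protease that cleaves agrin. It was at 30.6, 40.0, 34.1, 13.3 and 43.6 CPM in HSA-NRTN replicates 1 to 5, against 99.8, 59.5, 50.2, 55.8 and 97.2 CPM in wild-type replicates 1 to 5. The highest HSA-NRTN value, 43.6 CPM, was below the lowest wild-type value, 50.2 CPM, where 1.25% of tested genes had groups that did not overlap. The log2 fold change of -1.17 (SE 0.35) had an unadjusted p of 0.00448 and an adjusted p of 0.566 in edgeR, so it did not pass over all genes. Over the alternatives its log2 fold change lay between -1.34 and -0.87 and its adjusted p between 0.103 and 0.9999. The muscle kinase gene Musk and the acetylcholine receptor subunit genes Chrnd, Chrne and Chrng, named after their values were seen, had 0 counts in all libraries. The other muscle-type subunit genes of the list were low, Chrna1 with 45 counts in 5 HSA-NRTN libraries, against 12 counts in 4 wild-type libraries, and Chrnb1 with 28 counts in 4 HSA-NRTN libraries, against 8 counts in 2 wild-type libraries.

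Of 11 other EGF family ligands and their receptor Egfr, 6 were measured, 4 of them with a positive log2 fold change (median 0.24). The most abundant, Tmeff2, a membrane protein with an EGF-like domain, was at 246.2 CPM in HSA-NRTN and 325 CPM in wild-type pools and was not called (log2 fold change -0.40, SE 0.22). Of 11 genes of neuregulin and ErbB processing, 10 were measured, 3 of them positive (median -0.10). Adam10, a membrane protease that sheds ectodomains and the most abundant of them, was at 118 CPM in HSA-NRTN and 153 CPM in wild-type pools (log2 fold change -0.38, SE 0.33). Bace1, the protease that cleaves NRG1 in axons, chosen after its value was seen, was at 115 CPM in HSA-NRTN and 113 CPM in wild-type pools. Of 17 ErbB adaptors and regulators, 14 were measured, 9 of them positive (median 0.27), and Sos1, a Ras exchange factor and the most abundant, was at 174 CPM in HSA-NRTN and 225 CPM in wild-type pools (log2 fold change -0.37, SE 0.25).

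**Figure D5:**
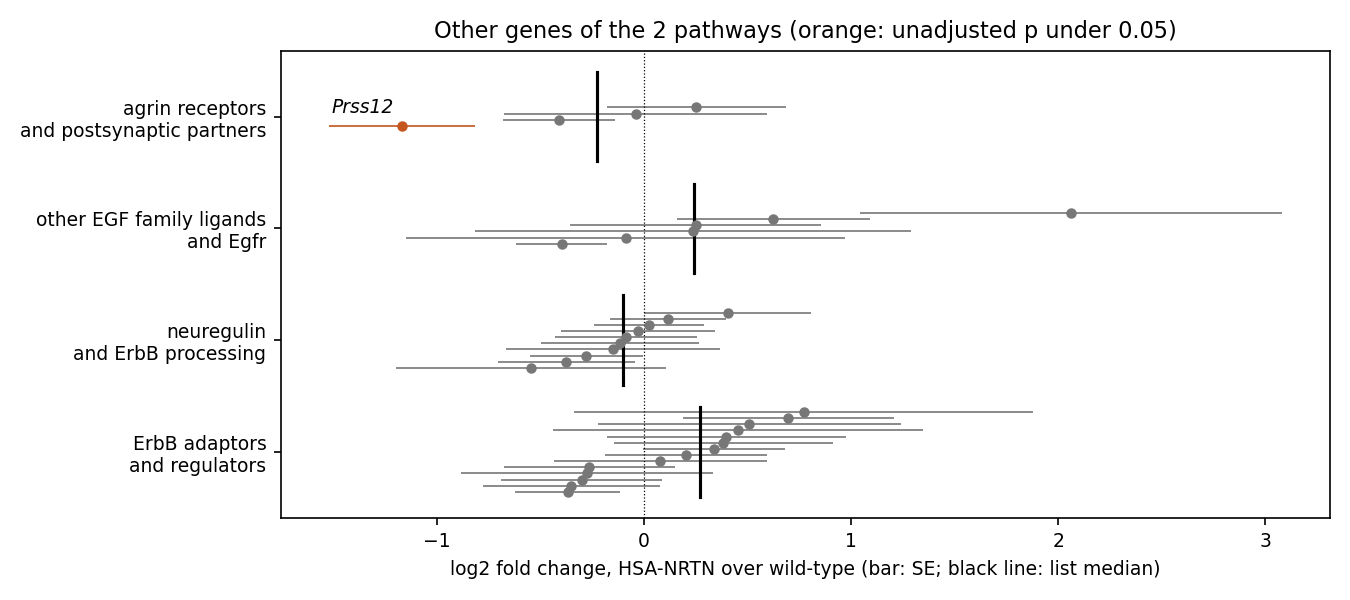
Log2 fold change, HSA-NRTN over wild-type, with SE, of the measured genes of the 4 pathway lists, with list medians as black lines and genes of unadjusted p under 0.05 in orange. Prss12, at -1.17, is the orange point, and the other genes lie on both sides of 0.

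The genes whose pattern over the 10 libraries was most like that of each fitted gene were found by Pearson correlation of log2 CPM among 8540 genes with a mean of at least 10 CPM. The correlations describe these libraries only, which also share depth and cell makeup, and the highest of so many values is high by selection. For Agrn they were Lrfn5, a synaptic adhesion gene (r = 0.960, Spearman rho = 0.952), and Akap17b (r = 0.927, rho = 0.952). For Nrg1 they were Knop1 (r = 0.930, rho = 0.964) and Fbxo34 (r = 0.912, rho = 0.806), and for Nrg3 Orc3 (r = 0.868, rho = 0.830) and Tmod3 (r = 0.855, rho = 0.770). For Nrg4 they were Wdyhv1 and Disp3 (r = 0.953 each, rho = 0.685 and 0.758), and for Erbb4 Sgcz (r = 0.931, rho = 0.915) and St7l (r = 0.913, rho = 0.988). Without the 2 libraries farthest from the median of each gene, r was 0.927 and 0.731 for Agrn, 0.865 and 0.846 for Nrg1, 0.730 and 0.679 for Nrg3, 0.839 and 0.849 for Nrg4, and 0.881 and 0.843 for Erbb4.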

How the data were processed

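Each library was made from about 50 laser-captured motor neurons of 1 mouse with Smart-seq2 and Tn5, per the labels' protocols. The kit amplifies whole transcripts and does not mark strand. STAR 2.5.0a, HTSeq and DESeq2 and the build GRCm38.p6 come from the submitters' processing notes. The annotation and the counting options are not stated there. The authors deposited raw counts per gene for 51912 genes, 92 spike-in sequences and 5 tally entries, and the last 2 stayed out of library sizes and tests. A deposited table of size-factor scaled signal, a fixed multiple of the counts in each library (relative spread at most 1.41e-15), was used for symbols. The authors' deposited comparison table, with log2 fold changes, a Wald score and p-values, also served for symbols. Its adjusted p-value was 0.631 for Nrg4 and higher or absent for the other members in the authors' deposited table.

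Counts were analysed in R 4.3.3 with edgeR 4.0.16. filterByExpr kept 11630 genes, libraries were scaled by TMM, and the quasi-likelihood F test was run on genotype without covariates, adjusted by the Benjamini-Hochberg method over all genes and called under 0.05. Sex was tested with genotype in the model, and the interaction with both. limma 3.58.1 (voom) and DESeq2 1.42.0 were alternatives. Standard errors were taken from the F statistic. Levels per length are CPM divided by the kb covered by all annotated exons of GENCODE M21, which held 51633 of the gene identifiers. Coordinates and the Agrn sequence are also from GENCODE M21.

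The fit was checked on simulated counts for genotype over 11630 genes, 200 of them changed: the fit recovered 7.46% of changes of 2-fold, 44.8% at 4-fold and 77.3% at 8-fold, and 6 of 92 calls were false. Replicate numbers were given in record order and only name the animals. Members and lists were chosen with earlier results of these data known. Named genes were all 8 members; of each list, members with an unadjusted p under 0.05 for genotype (at most 4), or else the most abundant; and the 2 most alike genes per fitted member. Nrdc is Nrd1 in the files.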

Additional observations from a re-analysis of the deposited data

Results flagged for a closer look

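A sample far from the others was looked for in the 16 groups of 5 libraries formed by 8 genes and both genotypes. For normally distributed values, chance flags about 1 group in 20. That rate does not hold for low, skewed counts, and 1 library above 0 beside others at 0 is always flagged. The number of flags was therefore not compared with chance. In HSA-NRTN replicate 2, Nrg2 was at 14.6 CPM and Nrg4 at 36.8 CPM. HSA-NRTN replicates 1, 3, 4 and 5 lay between 0.247 and 0.998 CPM for Nrg2 and between 2.71 and 6.41 CPM for Nrg4. In wild-type replicate 1, Erbb4 was at 12.6 CPM, and wild-type replicates 2 to 5 lay between 0.198 and 3.05 CPM. The remaining flags rest on 1 to 3 counts beside libraries at 0: Erbb2 at 0.183 CPM in HSA-NRTN replicate 3 and 0.595 CPM in wild-type replicate 5, and Erbb3 at 0.172 CPM in wild-type replicate 4.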

How the results depend on the processing

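None of the fitted members was called for genotype under any of the 22 alternatives, and Nrg1, Nrg3 and Nrg4 kept their direction in all of them, as did Prss12, Tmeff2, Adam10 and Sos1. Agrn turned positive with upper quartile factors (0.039), limma voom (0.040), genes detected as a covariate (0.027), males alone (0.069) and with HSA-NRTN replicate 2 and wild-type replicate 1 left out (0.044), and ran from -0.16 to 0.097 with 1 library left out. Erbb4 was -0.097 in females alone, -0.53 to 1.83 with 1 library left out, and too low to be fitted in males alone. For sex, Nrg3 was 0.015 under limma voom, and with 1 library left out Nrg3 ran from -0.11 to 0.099 and Nrg1 from -0.23 to 0.013. The count of genes called for genotype, 1, became 81 with no filter, 126 in DESeq2, 3 in limma voom, 5 with sex and 10 with genes detected as a covariate, 0 with the run of animal numbers as a covariate, 0 in females and 0 in males alone, and 0 (without wild-type replicate 2) to 13 (without HSA-NRTN replicate 3) with 1 library left out. For sex, 1 became 315 with no filter, 205 in DESeq2, 0 in limma voom and 1 to 176 with 1 library left out, the last without wild-type replicate 1. For the interaction, 0 became 35 with no filter and 16 in DESeq2, and stayed 0 with 1 library left out. The cause of these shifts was not tested. Of the neighbouring levels, 4 pairs passed with all libraries, 3 to 4 with 1 library left out, and 0 within HSA-NRTN and 0 within wild-type pools, where 5 libraries cannot give an exact p below 0.0625. In wild-type libraries alone Nrg4 lay below Nrg2 (-0.35) and Erbb3 below Erbb2 (-0.15). No paired analysis was possible because the labels give no replicate numbers shared between the groups. Depth limits the genes at or near 0, since 3 counts are up to 1.62 CPM in 1 library.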

Other observations

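Some genes of the lists were too low to be fitted and differed in counts, given as values only and chosen after they were seen. Rapsn, which encodes rapsyn, the scaffold of acetylcholine receptors, had 3 counts in 2 HSA-NRTN libraries, against 38 counts in 3 wild-type libraries. Lrig3, of a family of ErbB regulators, had 44 counts in 4 HSA-NRTN libraries, 24 of them in 1, against 9 counts in 2 wild-type libraries. All 34 wild-type counts of Egfr lay in 1 library. Among the fitted genes of the lists, Tmeff1, a relative of Tmeff2, had the largest log2 fold change, 2.06 (SE 1.02), with 31.5 ± 17.4 CPM in HSA-NRTN and 7.48 ± 10.1 CPM in wild-type mice (SD over 5 libraries a group), and edgeR did not call it (adjusted p = 0.999).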
